A study of Homo sapiens with 16 samples.

Results

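The E2F and RB family is described here as it appeared in RNA sequencing of human keratinocyte lines with less or more YAP activity. Its members were the rows of the deposited count table with the symbols E2F1, E2F2, E2F3, E2F4, E2F5, E2F7, E2F8, RB1, RBL1 and RBL2. These are 10 of the 26229 listed genes, and all 10 were among the 14673 genes that had a mean above 10 counts per library and were tested. The lines were A431, an epidermoid carcinoma line, and HaCaT, an immortalised keratinocyte line. Each line had 1 library for a control siRNA (siCTRL), 3 libraries for YAP1 knockdown by siRNA (siYAP), 1 for an empty expression vector and 3 for a vector carrying YAP5SA, a constitutively active YAP1 mutant, which makes 16 libraries in 8 groups. Cells received the siRNA on 2 occasions 24 h apart, and RNA was taken 48 h after the later transfection. No siRNA is listed for the vector cells and no vector for the siRNA cells, so each line has an siRNA arm and a vector arm, each with its own single control library. With 1 library per control, no spread among controls is known, and all error estimates come from the treated triplicates, which the study's methods describe as biological replicates.

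E2F proteins are transcription factors that bind promoters of genes for DNA synthesis and cell division, most of them as dimers with a DP protein. E2F1, E2F2 and E2F3 are known as activators of S phase genes, E2F4 and E2F5 work mainly as repressors together with pocket proteins, and the atypical E2F7 and E2F8 repress without a DP partner. The pocket proteins are RB1, which mostly binds the activators, and its relatives RBL1 (p107) and RBL2 (p130), which mostly bind E2F4 and E2F5. RBL2 is abundant in resting cells and RBL1 in cycling cells. Phosphorylation by cyclin-dependent kinases releases E2F from the pocket proteins, and several E2F and pocket protein genes are themselves E2F targets.

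The letters of such a target site can be seen in promoters of the family itself. The RefSeq promoter windows (GRCh38.p14, from 250 bases before to 50 after a start site) were searched on either strand for the E2F motif forms TTTCCCGC, TTTCGCGC, TTTGCCGC and TTTGGCGC. There were 10 windows for 8 of the 10 genes, E2F3 and RBL2 having 2 each and E2F5 and E2F8 none. A match was held by 4 of the 10 windows (40%), each belonging to a different gene, and by 3.31% of all 35116 windows and 4.74% of those of tested genes. The lines below show 30 bases around the matches, 5′ to 3′ on the strand of the gene, with the matching letters in capitals.
E2F1, chr20:33686395-33686424, minus strand: tctttcGCGGCAAAaaggaTTTGGCGCgta
E2F2, chr1:23531252-23531281, minus strand: acgacgTTTGGCGCtaaaaaaaaaaaaaaa
E2F3, chr6:20401820-20401849, plus strand: aagccgGCGGGAAAtccgagtttcgcggga
RBL1, chr20:37096000-37096029, minus strand: gcagatTTTCGCGCgcTTTGGCGCaggtgg
The windows of E2F1 and RBL1 held 2 matches each and those of E2F2 and E2F3 held 1, and every match lay shortly before the start site. None of these forms were found in the windows of E2F4, E2F7, RB1 and RBL2. The CHR element of genes expressed late in the cycle (TTTGAA, searched in the same way and allowed to overlap) was found in 1 window each of E2F3 and RBL2, 20% of the family windows, and in 10.7% of the windows of tested genes. The CCAAT box was found in 40% of the family windows and 34.7% of those of tested genes. A match describes the sequence only and is not a measured binding site.

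Between 18115624 and 46791673 read pairs per library (median 26622174) were assigned to genes, and levels are given as counts per 1000000 (CPM) after TMM scaling. YAP1 itself went with the labels in every library. Its A431 level was 94.3 CPM for siCTRL and 5.04 to 6.999 for siYAP, and 124 CPM with the empty vector and 1495, 3245 and 2940 with YAP5SA. Its HaCaT level was 254 CPM for siCTRL and 21.6 to 23.2 for siYAP, and 423 CPM with the empty vector and 7549, 22250 and 10070 with YAP5SA. YAP5SA replicate 1 thus had the lowest YAP1 of its triplicate in both lines. The keratinocyte markers were all present, with a summed level of 3706 to 5023 CPM in the siRNA arm and 4908 to 5690 CPM in the vector arm of A431 cells, and 2336 to 3212 and 4557 to 7804 CPM in HaCaT cells. Of these 8 markers 3 were called higher with siYAP over both lines and 2 with YAP5SA in HaCaT cells. The shares of all tested genes called higher there were 5.3% and 6.99%. Markers of other cell types were low, apart from CDH5 and, in HaCaT cells, DCN. The summed endothelial list, all 3 genes of which were tested, was 18.4 to 33.8 CPM in the siRNA arm and 3.88 to 5.92 CPM in the vector arm of A431 cells, and 15.97 to 59.2 and 1.19 to 2.39 CPM in HaCaT cells. CDH5 made up most of it, with its highest value in the siCTRL library of each line (31.1 and 51.8 CPM). Of the 6 fibroblast markers 2 were tested, and their sum in HaCaT cells was 13.1 to 19.9 CPM in the siRNA arm and 0.66 to 1.69 CPM in the vector arm, most of it DCN. COL1A2 and THY1 were at or near 0 throughout, and the summed leukocyte list was 0.900 to 7.05 CPM. The part of these markers in any difference between the arms or treatments was not tested.

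**Figure D1:**
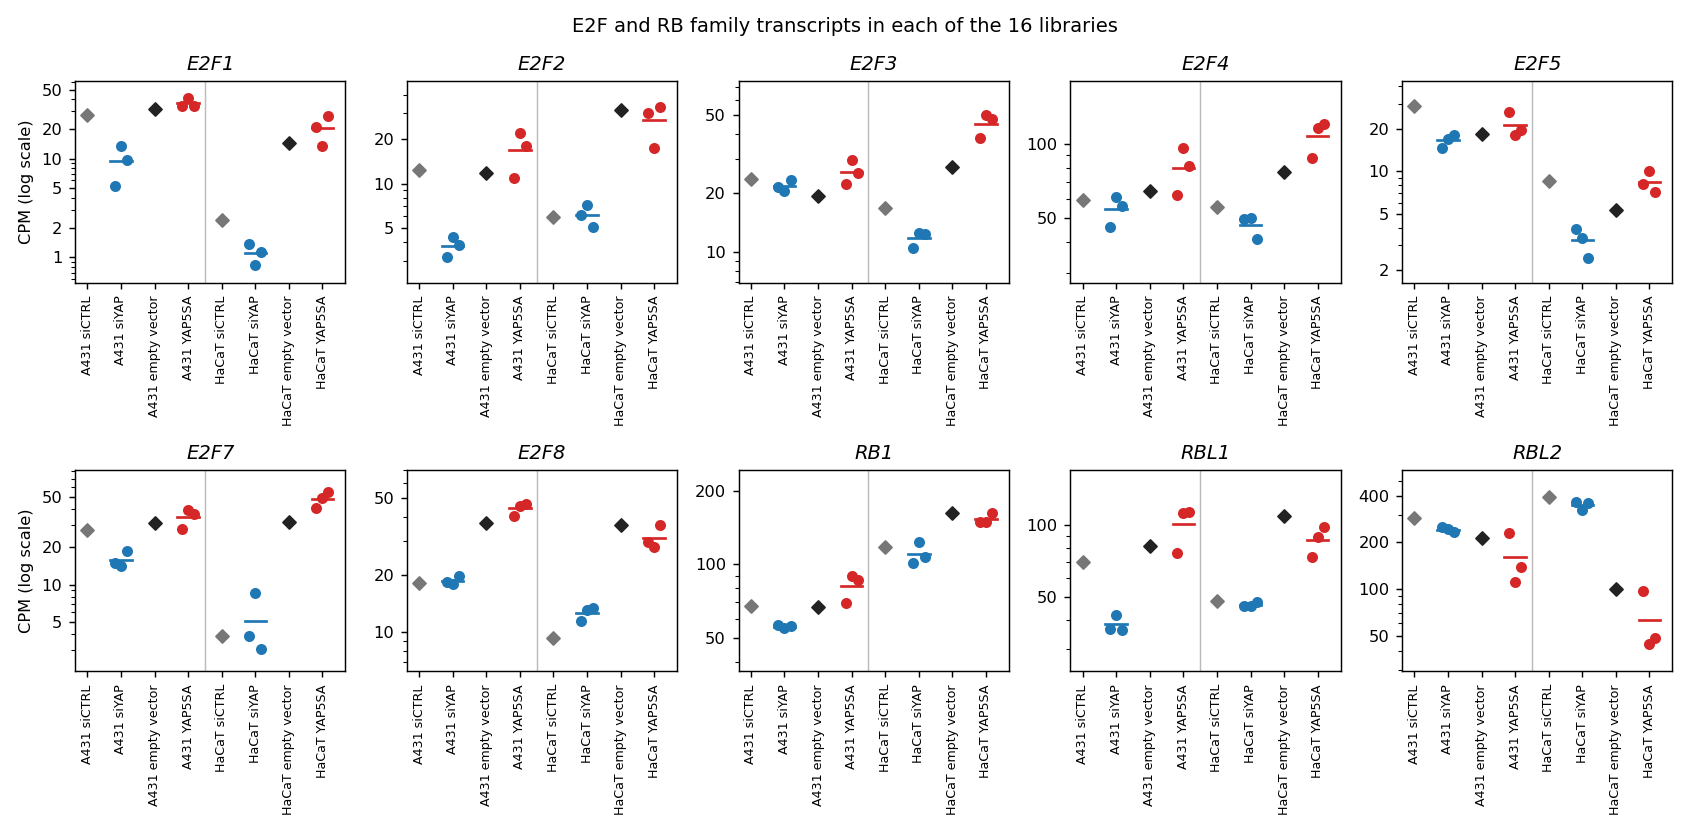
Level of each family member in each of the 16 libraries, as TMM-scaled CPM on a log axis. Diamonds are the single control libraries (grey siCTRL, black empty vector), dots the treated libraries (blue siYAP, red YAP5SA) and short lines the mean of 3. In A431 cells the blue dots of E2F1, E2F2 and RBL1 lie below siCTRL, and in HaCaT cells the controls of the arms lie far apart for E2F1, E2F2, E2F7, E2F8, RBL1 and RBL2.

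Depletion of YAP was compared with siCTRL in each line to ask which genes depend on YAP1. In A431 cells the activators E2F1 and E2F2 and the pocket protein RBL1 fell, 3 of the 10 members, all downwards, against a background of 3.78% of tested genes called lower. Calls required an FDR under 0.05 (edgeR quasi-likelihood test, Benjamini-Hochberg over all genes tested) and an average log2 CPM above 1. In bulk RNA, fewer cells of a kind and less RNA per cell cannot be told apart.

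E2F1 had 27.6 CPM with siCTRL in A431 cells and 5.28, 13.5 and 9.59 CPM with siYAP. The spread within the triplicate was wide, but all 3 libraries lay under the control. Its log2 fold change was -1.56 (SE 0.40, edgeR FDR = 0.0400). E2F2, the activator with the lowest level, had 12.3 CPM with siCTRL against 3.19, 4.37 and 3.81 CPM in the siYAP libraries. Its log2 fold change was -1.70 (SE 0.38, edgeR FDR = 0.0209), the lowest of the family in this comparison. The third activator, E2F3, differed from both, with 23.6 CPM in the control and 21.5, 20.5 and 23.3 CPM with siYAP (log2 fold change -0.12, SE 0.20, FDR = 0.784). RBL1 had 69.9 CPM with siCTRL against 36.6, 41.7 and 36.2 CPM in the siYAP libraries, a tight triplicate well under the control (log2 fold change -0.87, SE 0.20, edgeR FDR = 0.0258). These 3 calls were lost together without siYAP replicate 1 (FDR 0.0646 to 0.0706), without siYAP replicate 3 (FDR 0.0607 to 0.0981) and when siCTRL and empty vector served as 2 controls (FDR 0.0906 to 0.138), while the fold changes stayed between -1.71 and -0.84.

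The other 7 members did not pass in A431 cells. E2F5 had 29.03 CPM with siCTRL against 14.7, 16.9 and 18.04 CPM in the siYAP libraries (log2 fold change -0.81, SE 0.27, FDR = 0.0936). The atypical repressor E2F7 had 27.1 CPM against 14.98, 14.0 and 18.5 CPM (-0.78, SE 0.38, FDR = 0.254). Both were under the control in all 3 libraries. Among the members near the control level, E2F4 had 59.3 CPM against 46.1, 61.3 and 56.2, E2F8 had 18.2 against 18.3, 17.8 and 19.8, and RB1 had 67.9 against 56.7, 55.0 and 55.9. RBL2, the member with the most reads, had 286 CPM with siCTRL against 251, 244 and 232 CPM in the siYAP libraries (-0.24, SE 0.39, FDR = 0.777).

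In HaCaT cells E2F5 was the member that fell, 1 of 10, with 3.30% of tested genes called lower. It had 8.61 CPM with siCTRL against 3.90, 3.38 and 2.44 CPM in the siYAP libraries, every treated library at less than the control level. The log2 fold change was -1.41 (SE 0.29, edgeR FDR = 0.0122), and it was -1.43 (FDR = 0.0637) when HaCaT libraries were fitted alone. E2F1 was near the bottom of the measured range, at 2.40 CPM with siCTRL against 1.36, 0.83 and 1.12 CPM in the siYAP libraries (-1.11, SE 0.56, FDR = 0.287). E2F3 had 16.8 CPM against 10.4, 12.5 and 12.3 (-0.51, SE 0.20, FDR = 0.172).

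Of the genes called in A431 cells, E2F2 and RBL1 lay close to their control in HaCaT cells. E2F2 had 5.96 CPM with siCTRL against 6.08, 7.21 and 5.04 CPM in the siYAP libraries (log2 fold change 0.03, SE 0.42), and RBL1 had 48.0 against 45.4, 45.8 and 47.6 CPM (-0.05, SE 0.21). E2F7 had 3.88 CPM with siCTRL against 3.87, 8.55 and 3.04 CPM in the siYAP libraries, so replicate 2 alone set its positive log2 fold change of 0.38 (SE 0.47), which was -0.17 without that library. E2F8 had 9.40 CPM against 11.5, 13.1 and 13.5 (0.43, SE 0.19, FDR = 0.227), above the control in every library. RB1 had 118 CPM against 102, 123 and 107, and RBL2 392 against 362, 323 and 357. E2F4 had 55.7 CPM against 49.8, 50.2 and 41.1.

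The difference of the siYAP effect between the lines was tested directly, and no member passed (edgeR; 0.17% of tested genes did, and DESeq2 also called 0 members). At an unadjusted p under 0.05 there were 2 (11.5% of all genes tested were), E2F2, with a HaCaT minus A431 difference of 1.73 on the log2 scale (SE 0.58, edgeR FDR = 0.268), and RBL1, with 0.82 (SE 0.30, edgeR FDR = 0.320). Over both lines E2F1 (-1.33, SE 0.34, edgeR FDR = 0.0236) and E2F5 (-1.11, SE 0.20, edgeR FDR = 0.00308) fell, 2 of 10 members with 7.68% of tested genes called lower, and 9 of the 10 fold changes were negative. RBL1 (-0.46, FDR = 0.0534) and E2F2 (-0.84, FDR = 0.0659) were just outside the limit, and DESeq2 called both. With an additive model of line and treatment none were called (E2F5 FDR = 0.0595, E2F1 FDR = 0.240). The median log2 fold change over both lines was -0.262 for the family and 0.038 for all genes tested.

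**Figure D2:**
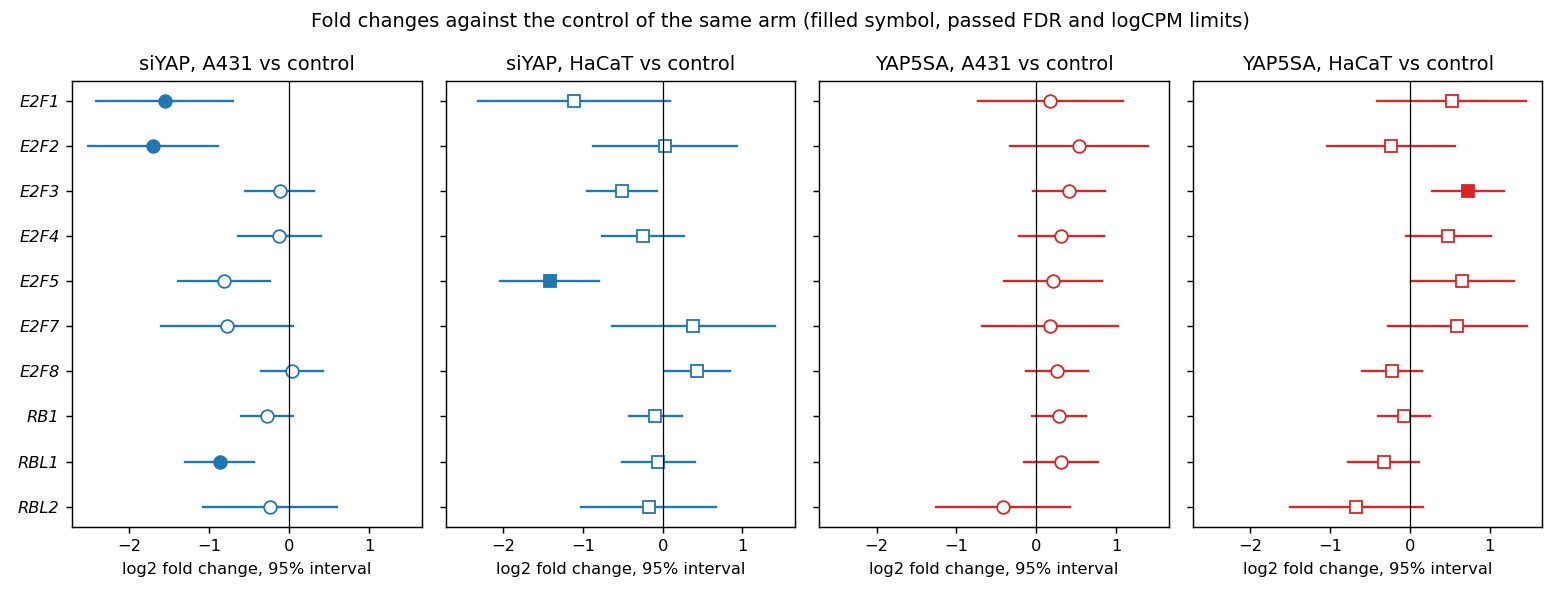
Log2 fold change of each family member against the control of its own arm, with its 95% interval from the edgeR fit, for siYAP (blue) and YAP5SA (red) in A431 (circles) and HaCaT cells (squares). Filled symbols passed the test. The filled symbols are E2F1, E2F2 and RBL1 with siYAP in A431, E2F5 with siYAP in HaCaT and E2F3 with YAP5SA in HaCaT cells, and most YAP5SA intervals include 0.

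Active YAP5SA was compared with the empty vector to ask the converse question. In A431 cells no member passed, as was true of every gene tested (0% called). None of the members had an unadjusted p under 0.05 in edgeR, DESeq2 called 0 of them, and 828 of all genes tested (5.64%) were under that p. The fold changes of 9 members were nonetheless above 0, with a family median of 0.272 on the log2 scale and one of 0.02 over all genes. E2F2 had 11.7 CPM with the empty vector and 10.9, 22.1 and 18.03 CPM with YAP5SA. RBL1 had 81.5 CPM against 76.4, 112 and 114, and E2F4 64.3 against 62.2, 96.4 and 81.4 CPM. In each of these genes replicate 1 lay just under the control and the other libraries above it.

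RBL2, the pocket protein of resting cells, was the exception in sign. It had 213 CPM with the empty vector and 230, 111 and 138 CPM with YAP5SA in A431 cells (log2 fold change -0.42, SE 0.39, FDR = 0.858). Again replicate 1 was near the control and the other libraries far under it. In HaCaT cells RBL2 repeated the order, with 100.2 CPM in the control and 96.8, 44.1 and 48.2 CPM with YAP5SA (-0.67, SE 0.38, FDR = 0.25). Without replicate 1 of HaCaT cells RBL2 was called lower at -1.12 (SE 0.29, edgeR FDR = 0.0179). Replicate 1 also had the lowest YAP1 level of both triplicates, and its part in the RBL2 values was not tested.

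With YAP5SA in HaCaT cells the activator E2F3 rose, 1 of 10 members with 6.99% of tested genes called higher. It had 27.3 CPM with the empty vector and 38.1, 49.9 and 48.0 CPM with YAP5SA, every library above the control. The log2 fold change was 0.73 (SE 0.21, edgeR FDR = 0.0341). The call was lost without replicate 2 (0.66, FDR = 0.0507), without replicate 3 (0.69, FDR = 0.0743) and with HaCaT libraries fitted alone (0.74, FDR = 0.0719). E2F4 had 77.3 CPM against 87.8, 116 and 120 (0.48, SE 0.25, FDR = 0.196), and E2F5 had 5.36 against 8.17, 10.1 and 7.10 CPM (0.66, SE 0.30, FDR = 0.150). These genes, too, were above the control in all 3 libraries without passing. E2F7 had 31.8 CPM against 40.5, 48.8 and 55.0, and E2F1 had 14.2 against 20.7, 13.4 and 27.2 CPM.

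The remaining HaCaT members had negative fold changes, although replicate 3 of E2F2 and RB1 lay slightly above the empty vector. E2F2 had 31.7 CPM in the control and 30.3, 17.5 and 33.1 CPM with YAP5SA, and E2F8 had 36.2 against 29.4, 27.8 and 36.1 CPM. RB1 had 161 CPM against 149, 149 and 162, and RBL1 109 against 73.1, 88.8 and 98.5 CPM, below the control in all 3 libraries (-0.33, SE 0.21, FDR = 0.294). Over both lines no member passed in edgeR (2.04% of tested genes did), 2 had an unadjusted p under 0.05, as did 21.4% of all genes tested, and DESeq2 called 1. The gene nearest the limit was E2F3, at 0.57 (SE 0.15, edgeR FDR = 0.0606). With the replicate number as a block over all treated libraries E2F3 was called at 0.56 (SE 0.12, edgeR FDR = 0.0343). That block took in the siYAP libraries as well. The reported fit held no block, and the labels do not say whether equal numbers pair libraries. E2F3 was also called without A431 replicate 1 (0.62, FDR = 0.0241) and without HaCaT replicate 1 (0.63, FDR = 0.0169), where RBL2 was called lower as well (-0.77, FDR = 0.0337). The difference of the YAP5SA effect between the lines passed for no member in edgeR or DESeq2, where 0.0886% of tested genes were called. None of the members had an unadjusted p under 0.05 there, whereas 22.4% of all genes tested had one.

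The controls of the arms differed from each other, most of all in HaCaT cells. There the empty vector library had 8.20 times as much E2F7 as the siCTRL library (31.8 against 3.88 CPM), 5.92 times as much E2F1 (14.2 against 2.40), 5.32 times as much E2F2 (31.7 against 5.96), 3.85 times as much E2F8 (36.2 against 9.40) and 2.27 times as much RBL1 (109 against 48.0). RBL2 went the other way, at 392 CPM with siCTRL and 100.2 CPM with the empty vector, a ratio of 3.91. E2F3, RB1 and E2F4 were 1.63, 1.37 and 1.39 times as high with the empty vector, and E2F5 had 0.622 times the siCTRL level. In A431 cells the ratio was over 2 for E2F8 alone (37.0 against 18.2 CPM, 2.04 times), and the others lay between 0.636 for E2F5 and 1.17 for E2F1 and RBL1. Among the 12240 genes with an average log2 CPM above 1, 31.9% differed more than 2-fold between the control libraries in HaCaT cells and 5.33% in A431 cells. Each ratio is of 1 library to 1, with no replicate check, and arm and culture cannot be told apart.

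This bears on the contrast of YAP5SA with siYAP, 3 libraries against 3, since the treatments stand in different arms. In A431 cells 7 members were higher with YAP5SA and none lower, with 20% of tested genes called higher. They were E2F2 (2.17, SE 0.29), E2F1 (1.95, SE 0.31), RBL1 (1.40, SE 0.15), E2F8 (1.25, SE 0.13), E2F7 (1.13, SE 0.28), E2F4 (0.56, SE 0.17) and RB1 (0.55, SE 0.11), all on the log2 scale with an edgeR FDR between 1.8e-05 and 0.0213. The E2F4 call was lost without any of siYAP replicates 1 and 3 and YAP5SA replicates 2 and 3 (FDR 0.0523 to 0.107), and RBL2, at -0.60 (FDR = 0.110), was called at -0.95 (FDR = 0.0130) without YAP5SA replicate 1. In HaCaT cells 9 members were higher, with 31.5% of tested genes called higher, and RBL2 was lower, with 28.5% called lower. E2F1 led with a log2 fold change of 4.19 (SE 0.37), then E2F7 (3.25, SE 0.31), E2F2 (2.15, SE 0.29), E2F3 (1.95, SE 0.15), E2F5 (1.38, SE 0.21), E2F8 (1.296, SE 0.13), E2F4 (1.199, SE 0.17), RBL1 (0.91, SE 0.15) and RB1 (0.47, SE 0.11). RBL2 was at -2.46 (SE 0.29).

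With each arm set against its own control, most of these calls were lost. No member passed in A431 cells (1.53% of tested genes did), where E2F2 had 2.24 (SE 0.57, FDR = 0.0603) and RBL1 1.18 (SE 0.30, FDR = 0.0608). E2F1 had 1.73, E2F7 0.95, RB1 0.57 and E2F4 0.44, all near their values without the controls but with standard errors of 0.22 to 0.60, and E2F8 went down to 0.22 (SE 0.25). In HaCaT cells (9% of tested genes called) E2F5 passed at 2.07 (SE 0.42, edgeR FDR = 0.0109) and E2F3 at 1.24 (SE 0.29, edgeR FDR = 0.0201). Both genes lay under siCTRL in all 3 siYAP libraries and over the empty vector in all 3 YAP5SA libraries. So did E2F4, which did not pass (0.73, SE 0.34, FDR = 0.191). For E2F5 the single empty vector library was itself under the single siCTRL library (5.36 against 8.61 CPM). E2F1 had 1.63 (SE 0.71, FDR = 0.156) and E2F7 0.21 (SE 0.61, FDR = 0.870), and the sign turned for E2F2 (-0.26), E2F8 (-0.65) and RBL1 (-0.27). RBL2 was left with -0.49 (SE 0.56, FDR = 0.615). This difference of differences was added after the values had been seen.

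**Figure D3:**
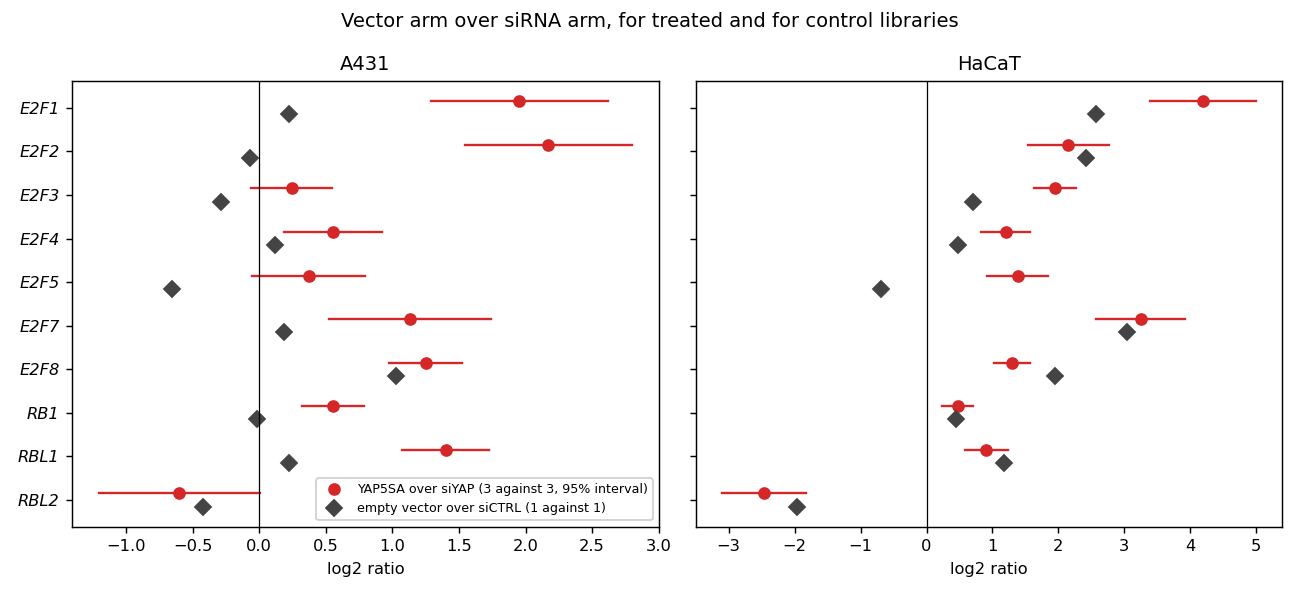
Log2 ratio of the vector arm to the siRNA arm for each family member in A431 (left) and HaCaT cells (right). Red dots are YAP5SA over siYAP (3 libraries each) with the 95% interval of the edgeR fit, and black diamonds are the ratio of the single empty vector library to the single siCTRL library. In HaCaT cells the diamonds of E2F2, E2F7, RB1, RBL1 and RBL2 fall inside the intervals of the dots.

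The lines differed in the make-up of the family. With siYAP 5 members were lower in HaCaT than in A431 cells, with 31.7% of tested genes called lower, and RB1 was higher, with 26.9% called higher. The lowest were E2F1 (log2 difference -3.07, SE 0.37, edgeR FDR = 7.17e-06) and E2F5 (-2.35, SE 0.22, edgeR FDR = 6e-07), followed by E2F7 (-1.64), E2F3 (-0.89) and E2F8 (-0.55). RB1 had 0.99 (SE 0.11). With YAP5SA 4 members were lower (26.7% of tested genes called lower) and 4 higher (23.5% called higher). E2F5 (-1.34, SE 0.20), E2F8 (-0.51, SE 0.12), RBL2 (-1.34, SE 0.29) and E2F1 (-0.83, SE 0.29) were lower, and RB1 (0.91, SE 0.11), E2F3 (0.82, SE 0.14), E2F2 (0.66, SE 0.27) and E2F4 (0.43, SE 0.17) were higher in HaCaT cells.

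E2F5 and RB1 were the members that kept the lines apart in every library. E2F5 had 14.7 to 29.03 CPM in A431 and 2.44 to 10.1 CPM in HaCaT libraries, and RB1 had 55.0 to 89.4 CPM in A431 and 102 to 162 CPM in HaCaT libraries. The smaller differences with YAP5SA depended on single libraries. The E2F1 call was lost without A431 replicate 2 (FDR = 0.0806), HaCaT replicate 1 (FDR = 0.0522) or HaCaT replicate 2 (FDR = 0.0991). The E2F2 call was lost without A431 replicate 1 or 3 or HaCaT replicate 1 or 3 (FDR 0.0843 to 0.181), and the E2F4 call without A431 replicate 1 or 3 or HaCaT replicate 2 or 3 (FDR 0.0846 to 0.166). RBL1 was called lower in HaCaT cells without A431 replicate 1 (-0.38, FDR = 0.0167). With siYAP, E2F2 had 0.69 (FDR = 0.0527) and was called higher in HaCaT cells without HaCaT siYAP replicate 3 (0.85, FDR = 0.0377).

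Levels of different members were compared per kilobase of transcript, using for each gene the GENCODE v29 transcript whose coding sequence is longest (1728 bases for E2F5 to 5740 for E2F7). E2F4 was the most abundant E2F in each of the 16 libraries. It made up 36.4% to 44.6% of the family's E2F transcripts in A431 cells with YAP5SA, 48.2% to 51.2% in A431 cells with siYAP, 49.8% to 57.1% in HaCaT cells with YAP5SA and 66.7% to 70.2% in HaCaT cells with siYAP. The share of the activator E2F1 ran the other way. It was 14.8% to 16.7% with YAP5SA and 4.63% to 9.42% with siYAP in A431 cells. In HaCaT cells it was 5.55% to 10.0% and 0.931% to 1.60%. The summed E2F level itself differed, at 81.6 to 103.0 CPM per kilobase with YAP5SA and 45.54 to 57.03 with siYAP in A431 cells. In HaCaT cells this sum was 84.17 to 108.6 and 29.38 to 35.45. Mean E2F4 was also lower with siYAP, at 26.01 against 38.18 CPM per kilobase in A431 cells and 22.43 against 51.48 in HaCaT cells. With siCTRL and empty vector the sum was 73.35 and 76.42 in A431 cells and 40.52 and 73.35 in HaCaT cells. The single controls of the arms already stood apart in HaCaT cells, where E2F4 made up 65.5% with siCTRL and 50.3% with the empty vector, and E2F1 2.37% and 7.76%. In A431 cells they were close, with E2F4 at 38.6% and 40.2% and E2F1 at 15% and 16.8%.

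Among the pocket proteins RBL2 held the first place in the siRNA arm of both lines and lost it in the vector arm of HaCaT cells. Per kilobase, RBL2 had 58.2 CPM and RB1 14.2 CPM in A431 cells with siCTRL, and 79.9 and 24.6 CPM in HaCaT cells with siCTRL. With YAP5SA in HaCaT cells RB1 had 31.1 to 33.8 CPM per kilobase, above RBL1 (12.9 to 17.3) and RBL2 (8.99 to 19.7), which overlapped. The share of RBL2 among pocket protein transcripts was 68.7% with siCTRL, 72.4% to 73.7% with siYAP, 60.5% with the empty vector and 62.6%, 37.2% and 42.5% with YAP5SA in A431 cells. In HaCaT cells it was 70.8% with siCTRL, 66.1% to 71.6% with siYAP, 27.9% with the empty vector and 31.0%, 16.1% and 16.1% with YAP5SA. In both lines YAP5SA replicate 1 stayed near its control and the other replicates were lower.

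**Figure D4:**
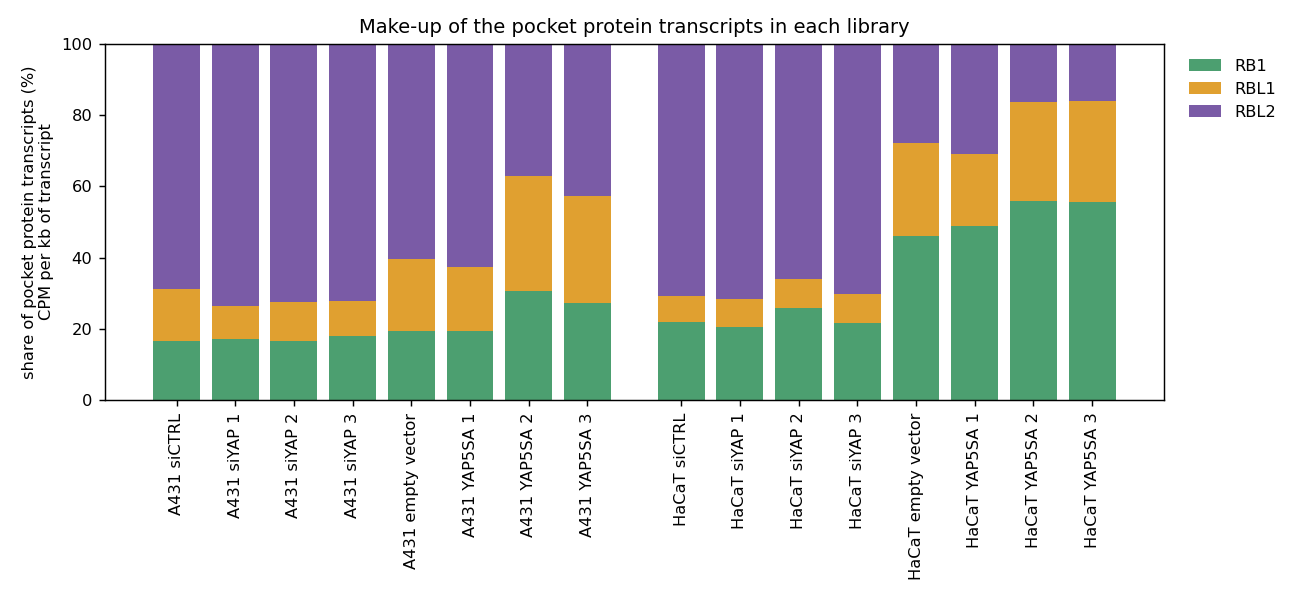
Share of RB1 (green), RBL1 (orange) and RBL2 (purple) in the pocket protein transcripts of each library, in percent of their summed CPM per kilobase of transcript. The purple part is 60.5% to 73.7% in the siRNA arm and empty vector of A431 cells, and in HaCaT cells it is 66.1% to 71.6% in the siRNA arm and 16.1% to 31.0% in the vector arm.

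The 3′ UTR sites TTCTTAA and CTTCTTA, singled out in earlier work on these data, were counted in the same transcripts. At least 1 of them was found in E2F3, E2F5, E2F7, RB1 and RBL1, 5 of 10 members, and none in E2F1, E2F2, E2F4, E2F8 and RBL2. E2F5, which fell with siYAP over both lines, held 2 of each form in a 3′ UTR of 653 bases, as 2 overlapping pairs. E2F7 held 2 of the former and 1 of the latter in 2768 bases. Such a site was held by 27.2% of 10676 genes. These were the tested genes with an average log2 CPM above 1 and a 3′ UTR above a short minimum length. Of those called with siYAP over both lines, 53.3% of the 1043 lower and 24.7% of the 709 higher genes held one. The median 3′ UTR was 1100 bases in all of these genes, 1537 bases in those called lower and 1262 bases in those called higher. Because the sites were picked in earlier work on the same libraries, the 53.3% is not an independent check of them. What these sites have to do with the E2F5 level was not tested.

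The partners and targets of the family were read from 5 lists. E2F target genes, the replication and S phase genes that activator E2Fs switch on, were lower with siYAP in A431 cells in 14 of 26 cases and over both lines in 15 of 26, and none were called higher. Of all tested genes 3.78% and 7.68% were called lower and 1.81% and 5.3% higher in these comparisons. All 26 had a negative fold change over both lines, with a median of -0.683 on the log2 scale. The A431 count was 7 without siYAP replicate 3, 10 without replicate 1, 0 with both control libraries pooled and 18 by DESeq2, and the additive model of line and treatment called 0 over both lines. In HaCaT cells 1 of 26 was called lower, near the 3.3% of all tested genes called lower there, although all 26 were negative with a median of -0.544. The call was CDC25A, named for being the single one (-1.28, SE 0.35, edgeR FDR = 0.0476). The HaCaT count was 3 without HaCaT siYAP replicate 2, 0 without replicate 1 or 3 and 26 with both control libraries pooled.

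The largest falls over both lines were those of the replication factors MCM10 and CDC45 and the ribonucleotide reductase subunit RRM2. MCM10 had 42.2 CPM with siCTRL against 8.74, 13.9 and 11.9 CPM in the siYAP libraries in A431 cells, and 5.19 against 1.70, 3.79 and 2.02 CPM in HaCaT cells (-1.48, SE 0.30, edgeR FDR = 0.00666). CDC45 fell by 1.43 (SE 0.35, edgeR FDR = 0.0179) and RRM2 by 1.31 (SE 0.31, edgeR FDR = 0.0142) on the log2 scale. With YAP5SA no E2F target was called in either line or over both, by edgeR or DESeq2, and 1 was called over both lines with the replicate block or without HaCaT YAP5SA replicate 1. Like E2F1 and E2F7, these genes separated the HaCaT controls. The empty vector library was above siCTRL for 26 of 26 of them, with a median log2 ratio of 3.04, and for 23 of 26 in A431 cells, with a median of 0.43.

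Of the DP partners and E2F6, 3 of 4 were tested. TFDP2, a dimer partner of E2F proteins, was lower over both lines with siYAP (-0.62, SE 0.12, edgeR FDR = 0.00482), while TFDP1, with -0.25 (SE 0.13, FDR = 0.214), and E2F6 did not pass. The MuvB core joins E2F4 and RBL1 or RBL2 in a repressor complex of resting cells, and MYBL2 and FOXM1 later in the cycle. Of these 7 genes 3 fell with siYAP over both lines, where 7.68% of tested genes were called lower. They were LIN52 (-1.04, SE 0.15, edgeR FDR = 0.000786), RBBP4 (-0.60, SE 0.09, edgeR FDR = 0.000847) and LIN9 (-0.49, SE 0.12, edgeR FDR = 0.0157). None of the genes in these lists passed with YAP5SA in edgeR or DESeq2, whereas 1 gene of the MuvB list was called lower in HaCaT cells with the replicate block, with the likelihood ratio test or without HaCaT YAP5SA replicate 2. Without A431 YAP5SA replicate 1, 1 gene of the DP list was called higher over both lines.

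Among 14 cyclins, cyclin-dependent kinases and their inhibitors, which set the phosphorylation of pocket proteins, 4 fell and 1 rose with siYAP over both lines, where 7.68% of tested genes were called lower and 5.3% higher. CDK6 (-0.83, SE 0.14, edgeR FDR = 0.00197) and CDK4 (-0.59, SE 0.14, edgeR FDR = 0.0137), the kinases of D-type cyclins, fell, as did CDK2 (-0.36, SE 0.10, edgeR FDR = 0.0386) and the cyclin CCND1 (-0.46, SE 0.13, edgeR FDR = 0.0347), which were named after their values were seen. CDKN2D, an inhibitor of both kinases, rose over both lines (1.47, SE 0.31, edgeR FDR = 0.00785). In A431 cells it went from 1.37 CPM in the single control library to between 2.93 and 5.15 CPM. With siYAP in A431 cells alone 3 of the 14 genes were called lower and 1 higher, with 3.78% and 1.81% of tested genes called so. In HaCaT cells taken by themselves 1 of the 14 was called lower, with 3.3% of tested genes called lower, and 0 higher. The count of falls over both lines was 2 without A431 siYAP replicate 1 or 3 or HaCaT siYAP replicate 1 or 3. With YAP5SA in HaCaT cells 2 of the 14 fell and 1 rose, with 6.64% of tested genes called lower and 6.99% higher. The inhibitor CDKN2B fell from 42.0 CPM to 24.5, 17.5 and 15.7 CPM (-1.13, SE 0.24, edgeR FDR = 0.0192) and the cyclin CCND2 rose from 49.6 to 94.6, 117 and 91.7 CPM (1.03, SE 0.22, edgeR FDR = 0.0115). The other fall, named after its values were seen, was that of the inhibitor CDKN1B, from 67.1 to 42.1, 39.1 and 41.3 CPM (-0.72, SE 0.13, edgeR FDR = 0.00638). CDKN1B was also the 1 gene of this list called with YAP5SA over both lines (-0.44, SE 0.09, edgeR FDR = 0.0366, with 0.661% of tested genes called lower), and that count was 0 without A431 YAP5SA replicate 2 or 3 or HaCaT YAP5SA replicate 3 and 2 by DESeq2. CDKN2B had 0 counts in all 8 A431 libraries, which allows up to 0.150 CPM in the shallowest of them at a limit of 3 counts, for counting error only.

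Of 8 corepressors that RB proteins recruit, 4 fell with YAP5SA in HaCaT cells, with 6.64% of tested genes called lower, and 1 fell over both lines, with 0.661% called lower. The HaCaT count was 1 with no count filter, with that line fitted alone or with both control libraries pooled, and the count over both lines was 0 without A431 YAP5SA replicate 2 or 3 or HaCaT YAP5SA replicate 3. ARID4A had 91.9 CPM with the empty vector and 51.8, 38.0 and 47.4 CPM with YAP5SA (-1.01, SE 0.17, edgeR FDR = 0.00535). ARID4B (-0.40, SE 0.11, edgeR FDR = 0.0300) and KDM5A (-0.41, SE 0.13, edgeR FDR = 0.0454) fell less, and the other call, named after its value was seen, was the deacetylase HDAC2 (-0.52, SE 0.14, edgeR FDR = 0.0326). In A431 cells with YAP5SA, KDM5A had 152 CPM with the empty vector and 146, 164 and 171 CPM with YAP5SA (0.07, SE 0.13), on either side of the control. With siYAP, KDM5A was also lower over both lines (-0.29, SE 0.09, edgeR FDR = 0.0494). In A431 cells it went from 171 CPM with siCTRL to 129, 113 and 123 CPM, while the HaCaT libraries lay closer to their control, at 186 against 180, 160 and 181 CPM. KDM5A was the 1 corepressor called over both lines (7.68% of tested genes were called lower), and that count was 0 without any 1 of the 6 siYAP libraries, with RLE size factors and with no count filter.

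The genes whose levels followed each member most closely were found by Pearson correlation of log2 CPM, centred within each line, over the 16 libraries and 12237 genes. The libraries share 2 arms that differ in many genes, so these values describe likeness and carry no test. E2F1 was most like FEN1 (r = 0.979), FANCA and SUV39H2, and E2F2 most like NASP (0.983), COASY and WDR76. E2F7 was most like SKA3 (0.987), UHRF1 and PSMC3IP. FEN1 and FANCA work in DNA replication and repair, NASP carries histones and UHRF1 maintains DNA methylation in S phase. E2F8 was most like CEP97 (0.981), HIST3H2BB and LIN54, a MuvB component, and RBL1 most like HIST1H4H (0.978), OSGEP and GEN1. E2F3 was most like XPO6 (0.990), FST and SLC38A5, E2F4 most like DPP3 (0.977), DDX56 and RAB35, and RB1 most like UFD1L (0.972), SAAL1 and EXOSC3. E2F5 had the loosest match, TOR1B (0.936), before LYN and ST3GAL1. RBL2 was followed by THBS3 (0.993), ILDR1 and KLHL24, none of them another family member.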

How the data were processed

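The authors cut Illumina paired reads to a length of 75 bp, aligned these to RefSeq models by RSEM (version 1.2.11 in the submitters' processing notes, which also name edgeR and hg19) and deposited expected counts per gene, neither scaled nor filtered. Expected counts were rounded and TMM-scaled, with factors from 0.9135 to 1.074. edgeR 4.0.16 in R 4.3.3 (limma 3.58.1) was run on 1 model of 8 groups with 8 residual degrees of freedom and a prior count of 0.125. A comparison over both lines averaged the log2 fold changes of A431 and HaCaT. With 3 libraries against 1, the smallest exact permutation p is 0.25, so no such test was used.

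The 12 replicate pairs differed by more than sampling noise. Deviations from the group means of same-numbered YAP5SA libraries of the lines correlated at 0.35, 0.137 and 0.135. The unlike-numbered A431 replicate 2 and HaCaT replicate 3 correlated at 0.257. Same-numbered siYAP libraries reached 0.017, 0.118 and 0.228. The labels state no pairing, so whether equal numbers pair libraries is not known. The reported model held no replicate term and treated all libraries as unpaired, and the replicate block was an alternative fit only. The members and gene lists were chosen with earlier results of these data known. The text names all members, the called genes of each list with the largest fold changes over both lines (up to 3 per direction), the 3 genes most like each member, and YAP1. A pseudocount of 0.5 CPM was used for likeness and for the comparison of control libraries over many genes. The alternatives were DESeq2 1.42.0, RLE size factors, other count filters, FDR alone, separate fits per line, the likelihood ratio test, both controls pooled, single libraries left out, an additive model, a replicate block and each arm against its own control. Promoters came from RefSeq (GRCh38.p14), a build other than that of the mapping, and transcripts from GENCODE v29, matched by symbol. Tables and figures were made in Python 3.11.15 with numpy 2.4.6, pandas 2.3.3 and matplotlib 3.10.9.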

Additional observations from a re-analysis of the deposited data

How the results depend on the processing

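Of 1620 recomputed member fold changes, 1511 kept their direction and their side of the limit, and 32 turned in sign, whether or not their call changed. Among those that kept their direction, 33 passed only under the alternative and 44 only in the reported fit. None of the called members turned except E2F2, E2F8 and RBL1 in HaCaT cells with each arm against its own control (-0.26, -0.65 and -0.27), where the calls of YAP5SA against siYAP fell from 7 to 0 in A431 and from 10 to 2 in HaCaT cells. The cause was not tested.

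Pooling siCTRL and empty vector as 2 controls moved the most values. The members called with siYAP went from 3 to 0 in A431 cells, from 1 to 5 in HaCaT cells and from 2 to 6 over both lines, and those called with YAP5SA from 1 to 3 in HaCaT cells and from 0 to 2 over both lines. With siYAP the log2 fold changes turned to 0.0184 for E2F3 and -0.57 for E2F8 in A431 cells, to -1.64 for E2F2, -1.82 for E2F7, -0.85 for E2F8 and 0.50 for RBL2 in HaCaT cells, and to -0.71 for E2F8 and 0.23 for RBL2 over both lines. With YAP5SA they turned to -0.15 for E2F5 in A431 cells, to 0.51 for E2F2, 0.44 for E2F8, 0.14 for RB1 and 0.15 for RBL1 in HaCaT cells, and to 0.28 for RBL1 over both lines. The differences between the lines turned to -1.26 for E2F1, -0.94 for E2F7, -0.29 for E2F8 and -0.0607 for RB1 with siYAP and to 0.0061 for E2F2 with YAP5SA.

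Each line fitted alone left 0 calls in HaCaT cells for siYAP and for YAP5SA. Over both lines the siYAP count was 4 with the likelihood ratio test and with DESeq2 and 0 with the additive model, and the YAP5SA count was 1 with the likelihood ratio test, with DESeq2 and with the replicate block. With YAP5SA over both lines RBL1 turned to 0.0076 with no count filter and E2F8 to -0.0012 with the additive model. Leaving out single libraries gave 0 to 3 calls for siYAP in A431 cells, 0 to 2 for YAP5SA in HaCaT cells and 0 to 2 for YAP5SA over both lines. Some fold changes then spanned 0. With siYAP, E2F8 ran from -0.0082 to 0.0673 in A431 cells, and E2F2 from -0.10 to 0.15 and E2F7 from -0.17 to 0.66 in HaCaT cells. With YAP5SA over both lines RBL1 ran from -0.0592 to 0.0731 and E2F8 from -0.0408 to 0.0573, and the difference between the lines for RBL2 ran from -0.70 to 0.10. The replicate block also called RBL1 with siYAP over both lines (-0.46, FDR = 0.0267), RBL2 for YAP5SA against siYAP in A431 cells (-0.67, FDR = 0.0208) and RBL2 between the lines with siYAP (0.52, FDR = 0.0374), and changed no other call. The block was fitted over all treated libraries, although the labels do not say that equal numbers pair samples.

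A single control per arm and line limits every comparison with a control. In the siRNA arm of HaCaT cells E2F1 had 17 to 44 counts per library (0.826 to 2.40 CPM), so its fold change there rests on few counts.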
